A study of Mus musculus with 15 samples.

Results

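Glutamate receptors carry most fast excitatory signalling in the hippocampus, and the 37 genes described here encode the receptors and their auxiliary subunits. They are the AMPA receptor subunits, the transmembrane AMPA receptor regulatory proteins (TARPs), cornichon, Shisa and GSG1L proteins that ride on AMPA receptors, the NMDA and kainate receptor subunits with the kainate auxiliary Neto proteins, a delta receptor and the metabotropic receptors. The members were given by name, and all 37 of the 37 were found among the 32285 genes counted. They were measured by single-nucleus RNA sequencing (snRNA-seq) of bilateral micropunches of the dorsal hippocampal formation (dHF) of 15 female C57BL/6J mice. The groups were 6 virgin nulliparous mice (NP), 4 mice with reproductive experience and undisturbed litters (control RE) and 5 mice with reproductive experience whose pups were separated from them and whose nesting material was limited in the later postpartum period (stress RE). All were wild-type mice of that strain by the study's methods. By the labels, batch 1 comprised NP mice 1 and 2 and stress RE mouse 2 only. Batches 2 and 3 contained all 3 groups, 2 mice each.

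As background, AMPA receptors are tetramers that open within a millisecond of glutamate binding, and a receptor that contains the Gria2 product passes little calcium. TARPs, cornichons and Shisa proteins set how fast these channels close and how many reach the synapse. NMDA receptors pair the obligatory Grin1 product with Grin2 subunits that set their kinetics, and kainate receptors are prominent at the mossy fibre synapse, which joins dentate granule cells to CA3 pyramidal cells. Metabotropic receptors couple to G proteins, the Grm5 product to calcium release and the products of Grm2 to Grm4 and Grm6 to Grm8 to a fall in cyclic AMP.

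Each library had between 5789 and 12738 barcodes. Its UMIs, that is, counted RNA molecules, numbered 40602582 to 96211264, and the members took 1.73% to 2.27% of them. Of 134019 barcodes, 123901 were kept as nuclei after removal of low-quality barcodes and likely doublets, and any 2 libraries shared 6 to 47 barcodes. Clustering that did not use the members gave 24 classes named from marker genes, which held 111160 nuclei, and 12741 nuclei stayed unnamed. A name such as "CA3-like" means only that the cluster scored high for those markers. Mossy cell-like nuclei scored 2.30 for mossy cell markers and 2.51 for CA3 markers (mean log2 fold over the median cluster), and were named from a mossy cell marker among their 10 leading genes. The mossy cell score lay below the 2.5 that a list otherwise needed. With coarser clusters (Leiden resolution 0.5) CA2-like nuclei formed no class of their own, and the subiculum-like class grew from 512 to 2394 nuclei. The level of a gene in a class is its share of all UMIs of that class in 1 mouse, in CPM. It is given as mean ± SD over those mice in which the class had 10 nuclei or more, with n = 15 unless another n stands beside it. Longer genes hold more countable nuclear RNA, so levels were compared between classes for 1 gene and never between genes. Clusters were made from the same nuclei, so differences between classes are a description with no test.

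The punches held more than hippocampus. At least 10 striatal projection-like nuclei were found in 8 mice, with 868 of the 1938 in stress RE mouse 3. The paper describes neurons with Drd1 and Drd2 in a GABAergic cluster of its dHF nuclei. It also reports both RNAs by in situ hybridization in dorsal CA1, in a separate cohort, and in the dentate gyrus. Where the striatal projection-like nuclei lay was not tested. Habenula-like nuclei were 2.33% ± 1.74 (SD) of all nuclei in the 6 NP mice, 0.150% ± 0.174 in the 4 control RE mice and 0.516% ± 0.541 in the 5 stress RE mice. RNA of neuronal receptors was also counted in non-neuronal classes, and droplet data hold free RNA. The median level over microglia-like, border macrophage-like, endothelial-like and pericyte or smooth muscle-like nuclei, called the background level, was 659 CPM for Gria1 against 4902 CPM in CA1-like nuclei, so a low level in a non-neuronal class does not show that its cells make the gene. Pericyte or smooth muscle-like nuclei were themselves the highest class of Grm3 and Grm7, so these 4 classes need not lack every member. They had a median of 1909 to 2330 UMIs per nucleus, against 13473 in CA1-like and 19445 in CA2-like nuclei. In NP mice 10 dentate granule markers summed to a mean of 1682 CPM in microglia-like, 813 CPM in CA2-like and 399 CPM in CA3-like nuclei. A level below background in a class with more UMIs therefore does not show that its cells lack the gene.

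Among the named classes, the members split by the class in which they were highest. Of the 37 members, 22 were highest in a hippocampal excitatory class, 6 in a GABAergic class, 2 in thalamic excitatory-like nuclei and 7 in a non-neuronal class. CA1-like and subiculum-like nuclei held the highest level of 6 members each, and oligodendrocyte precursor-like nuclei that of 4. For 11 of the 37 the same class was highest in all 15 mice and for another 5 in each mouse with at least 10 nuclei of it, and for 7 of the 37 the range over mice in the highest class did not overlap the range in the next. Those 7 were Grin2c, Grik1, Grm4, Grm7, Shisa6, Cacng3 and Cacng4. Unnamed clusters were left out of this order, and an unnamed cluster of 1892 nuclei held more Grik3 (481.5 ± 62.7 CPM, n = 14) than any named class. Another of 328 nuclei held, over 4 mice, higher means than any named class for Gria1 (5439 ± 973 CPM), Gria2 (2759 ± 187 CPM), Grm8 (1536 ± 243 CPM) and Cacng5 (144 ± 39.6 CPM). With the coarser clusters 9 members had another highest class, among them Grik3 (subiculum-like), Cacng5 (thalamic excitatory-like), Grm3 (oligodendrocyte-like) and Grm5 and Grm7 (striatal projection-like). The coarser clusters held no pericyte or smooth muscle-like class, the highest of Grm3 and Grm7. They also held no CA2-like class, the highest of Cacng5 and Grid1 among the named classes. Of the 37 members, 2 overlap another counted gene on the same strand and 12 on the opposite strand, so a part of their UMIs is uncertain.

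**Figure D1:**
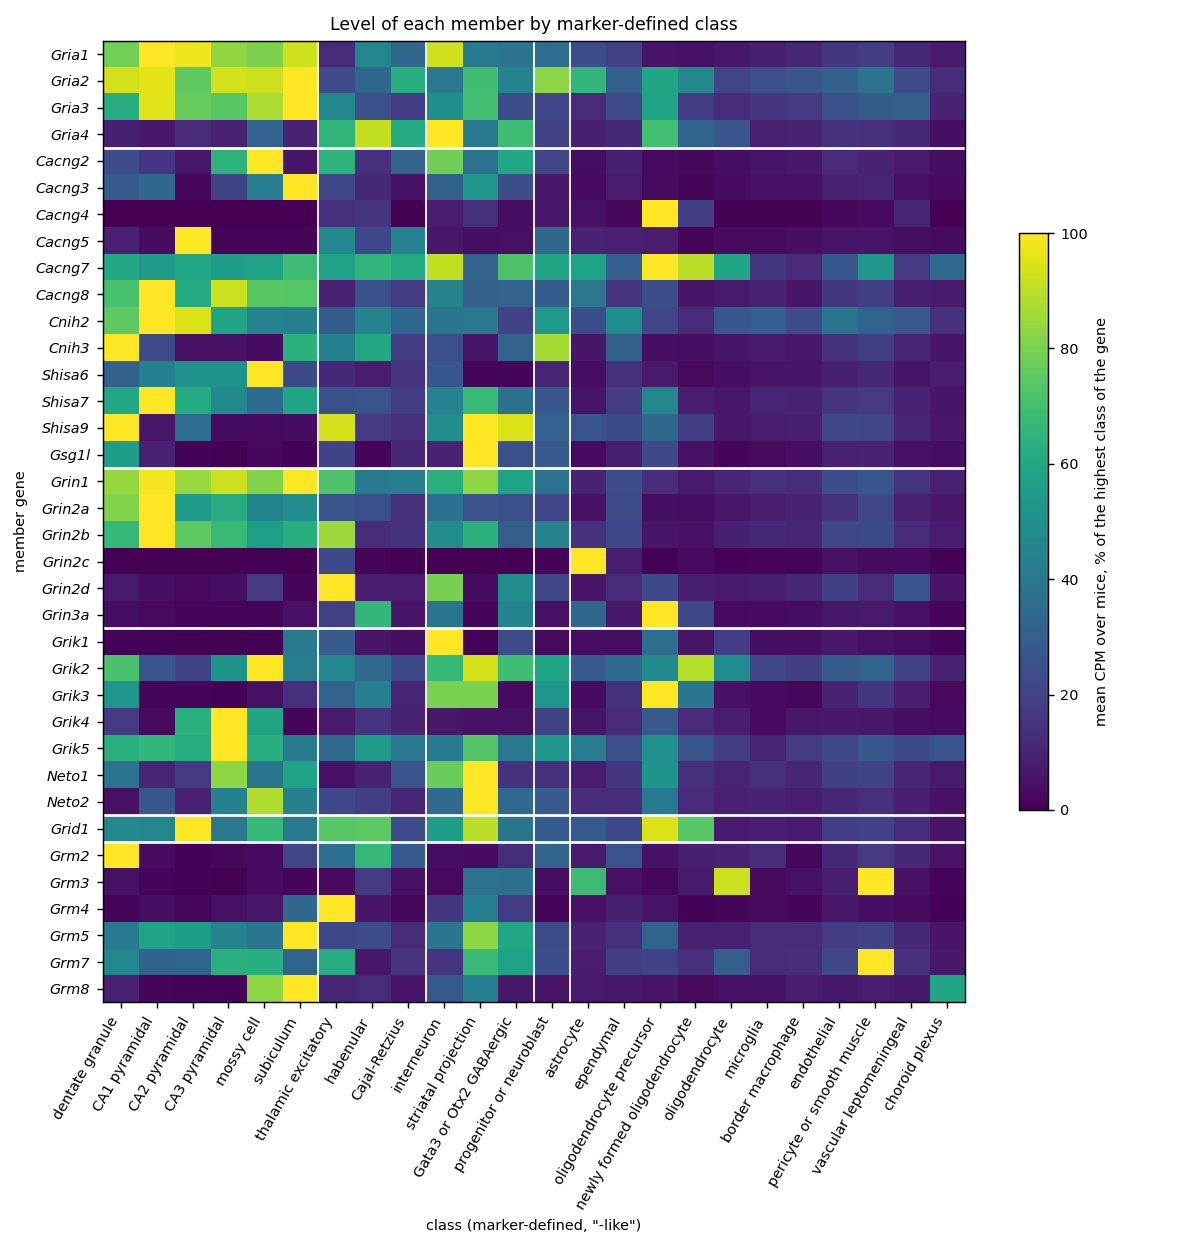
Mean level of 36 members (rows, ordered as AMPA subunits, AMPA auxiliary subunits, NMDA, kainate with Neto proteins, delta and metabotropic receptors) in the 24 marker-defined classes (columns), as the percentage of the gene's own highest class. Gria1, Gria2, Gria3, Grin1, Grin2a and Grin2b are high in the 6 hippocampal excitatory columns at the left, while Grin2c peaks in astrocyte-like, Cacng4 in oligodendrocyte precursor-like and Grm3 in mural, oligodendrocyte-like and astrocyte-like nuclei. Grm6, near 0 everywhere, is left out.

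The promoter windows of 3 members are shown because their class patterns contrast: Gria2 was high across hippocampal excitatory classes, its paralogue Gria4 was low there, and Grin2c was highest in astrocyte-like nuclei. Each run is the 250 bases before the start site that RefSeq gives on GRCm38.p6, read 5′ to 3′ on the gene's strand, with every CG dinucleotide in capitals. Gria2 lies at chr3:80802836-80803085, Gria4 at chr9:4796235-4796484 and Grin2c at chr11:115267244-115267493, all on the minus strand.
Gria2: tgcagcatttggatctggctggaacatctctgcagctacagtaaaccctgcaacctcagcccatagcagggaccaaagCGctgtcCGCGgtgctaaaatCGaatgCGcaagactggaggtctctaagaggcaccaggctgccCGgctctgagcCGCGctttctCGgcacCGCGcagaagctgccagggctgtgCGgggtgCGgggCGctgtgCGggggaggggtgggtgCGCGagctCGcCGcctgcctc
Gria4: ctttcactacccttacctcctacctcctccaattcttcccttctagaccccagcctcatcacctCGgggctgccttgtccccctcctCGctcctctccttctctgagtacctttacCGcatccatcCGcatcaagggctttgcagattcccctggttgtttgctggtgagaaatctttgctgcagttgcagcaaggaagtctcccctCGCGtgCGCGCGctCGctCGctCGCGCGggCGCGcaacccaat
Grin2c: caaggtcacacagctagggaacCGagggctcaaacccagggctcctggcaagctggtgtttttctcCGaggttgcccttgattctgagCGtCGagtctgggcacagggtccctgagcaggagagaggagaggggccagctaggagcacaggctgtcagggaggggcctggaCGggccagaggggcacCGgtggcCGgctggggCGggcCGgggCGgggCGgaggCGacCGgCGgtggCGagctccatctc
The windows held 19, 16 and 15 CG dinucleotides respectively, against a median of 6 over 32851 windows of the same length. RefSeq promoters were found for 23 members (28 windows, median 13.5 CG dinucleotides). The letters GGACAGC, the right-hand part of the RE1 site that the repressor REST binds, occurred on either strand in the windows of Gria2 and Grm2, that is, in 2 of 28 windows and in 5.28% of all windows. TATAAA occurred in 0 of the 28 windows and in 12.4% of all windows, and the cyclic AMP response element TGACGTCA in 0 of 28 and 1.55%. A match in these letters is a description and not a binding site.

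Among AMPA receptor subunits, Gria1, which encodes the subunit that carries much of activity-dependent trafficking, was high in all hippocampal excitatory classes and in interneuron-like nuclei. It reached 4902 ± 505 CPM in CA1-like, 4785 ± 582 CPM in CA2-like, 4553 ± 361 CPM (n = 13) in subiculum-like and 4539.9 ± 467 CPM in interneuron-like nuclei, values that overlapped over mice, and 594 ± 68.2 CPM in thalamic excitatory-like nuclei. Gria2, which limits calcium entry, lay between 1897 CPM (CA2-like) and 2519.99 CPM (subiculum-like) in the hippocampal excitatory classes and was 1001 ± 109 CPM in interneuron-like and 574 ± 59.4 CPM in thalamic excitatory-like nuclei. It was also high in progenitor or neuroblast-like nuclei at 2078 ± 417 CPM, and reached 1669.96 ± 247 CPM in astrocyte-like and 1495 ± 199 CPM in oligodendrocyte precursor-like nuclei. Gria3 was highest in the same classes, with 1182 ± 92.5 CPM (n = 13) in subiculum-like and 1126 ± 117 CPM in CA1-like nuclei.

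Gria4, whose product gates fastest and is known from parvalbumin interneurons and thalamus, was low in these classes. It was highest in interneuron-like (1837 ± 253 CPM) and habenula-like nuclei (1665 ± 339 CPM, n = 12), which overlapped, followed by oligodendrocyte precursor-like (1283 ± 140.1 CPM), Gata3 or Otx2 GABAergic-like (1265 ± 177 CPM, n = 14), thalamic excitatory-like (1200.1 ± 94.6 CPM) and Cajal-Retzius-like nuclei (1130.4 ± 157 CPM). In CA1-like nuclei it was 116 ± 15.7 CPM, below its background level of 217 CPM. Mossy cell-like nuclei stood apart from the pyramidal classes with 578 ± 35.1 CPM (n = 11), and their range over mice (523 to 627 CPM) did not overlap that of CA3-like nuclei (153 to 208 CPM).

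The TARPs, which bind AMPA receptors throughout their life, peaked in different classes. Cacng8, the TARP gene long known from hippocampal pyramidal cells, was highest in CA1-like (249 ± 26.2 CPM) and CA3-like nuclei (229 ± 29.4 CPM) and was 24.8 ± 4.42 CPM in thalamic excitatory-like nuclei. Cacng2, the stargazin gene, was highest in mossy cell-like (309 ± 72.5 CPM, n = 11), interneuron-like (243 ± 48.7 CPM), CA3-like (199.7 ± 47.3 CPM) and thalamic excitatory-like nuclei (199.6 ± 33.9 CPM) and was 48.2 ± 11.8 CPM in CA1-like nuclei. Cacng3 was highest in subiculum-like nuclei (374 ± 59.8 CPM, n = 13), with 194 ± 28.5 CPM (n = 8) in striatal projection-like and 158 ± 30.9 CPM (n = 11) in mossy cell-like nuclei, and lowest among neuronal classes in CA2-like nuclei (7.37 ± 7.49 CPM).

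Among the named classes Cacng5 was highest in CA2-like nuclei in 15 of 15 mice, at 104 ± 24.3 CPM, against 3.25 ± 1.97 CPM in CA1-like and 1.3 ± 0.958 CPM in CA3-like nuclei on either side of CA2. Cacng4 was highest in oligodendrocyte precursor-like nuclei in 15 of 15 mice, at 887 ± 131 CPM, which was 5.47-fold the 162 ± 116 CPM of newly formed oligodendrocyte-like nuclei. It was 4.12 ± 1.43 CPM in mature oligodendrocyte-like nuclei and 1.08 ± 1.1 CPM in CA1-like nuclei. Cacng7, another TARP gene, ranged from 12 CPM in border macrophage-like to 96.4 CPM in oligodendrocyte precursor-like nuclei.

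The other AMPA auxiliary genes each had their own peak. Shisa6 was highest in mossy cell-like nuclei in each of the mice with at least 10 of them, at 2809.5 ± 414 CPM (n = 11), without overlap with the 1446 ± 187 CPM of CA3-like nuclei. Shisa7 was highest in CA1-like nuclei (139 ± 29.5 CPM). Shisa9 was near equal in dentate granule-like (965 ± 90.9 CPM) and striatal projection-like nuclei (962 ± 110.3 CPM, n = 8), and near them in Gata3 or Otx2 GABAergic-like (914 ± 107 CPM, n = 14) and thalamic excitatory-like nuclei (903 ± 91.6 CPM), but 28.9 ± 13.1 CPM in CA3-like and 29.9 ± 26 CPM (n = 11) in mossy cell-like nuclei. Cnih3 marked dentate granule-like (141 ± 19 CPM) and progenitor or neuroblast-like nuclei (122 ± 42.3 CPM) and was 6.31 ± 2.73 CPM in CA3-like nuclei, whereas Cnih2 was 39 ± 11 CPM in CA1-like and 37 ± 12 CPM in CA2-like nuclei. Gsg1l was highest in striatal projection-like (247 ± 48.6 CPM, n = 8) and then dentate granule-like nuclei (137 ± 16.5 CPM), with 1.8 ± 1.08 CPM in CA3-like nuclei.

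**Figure D2:**
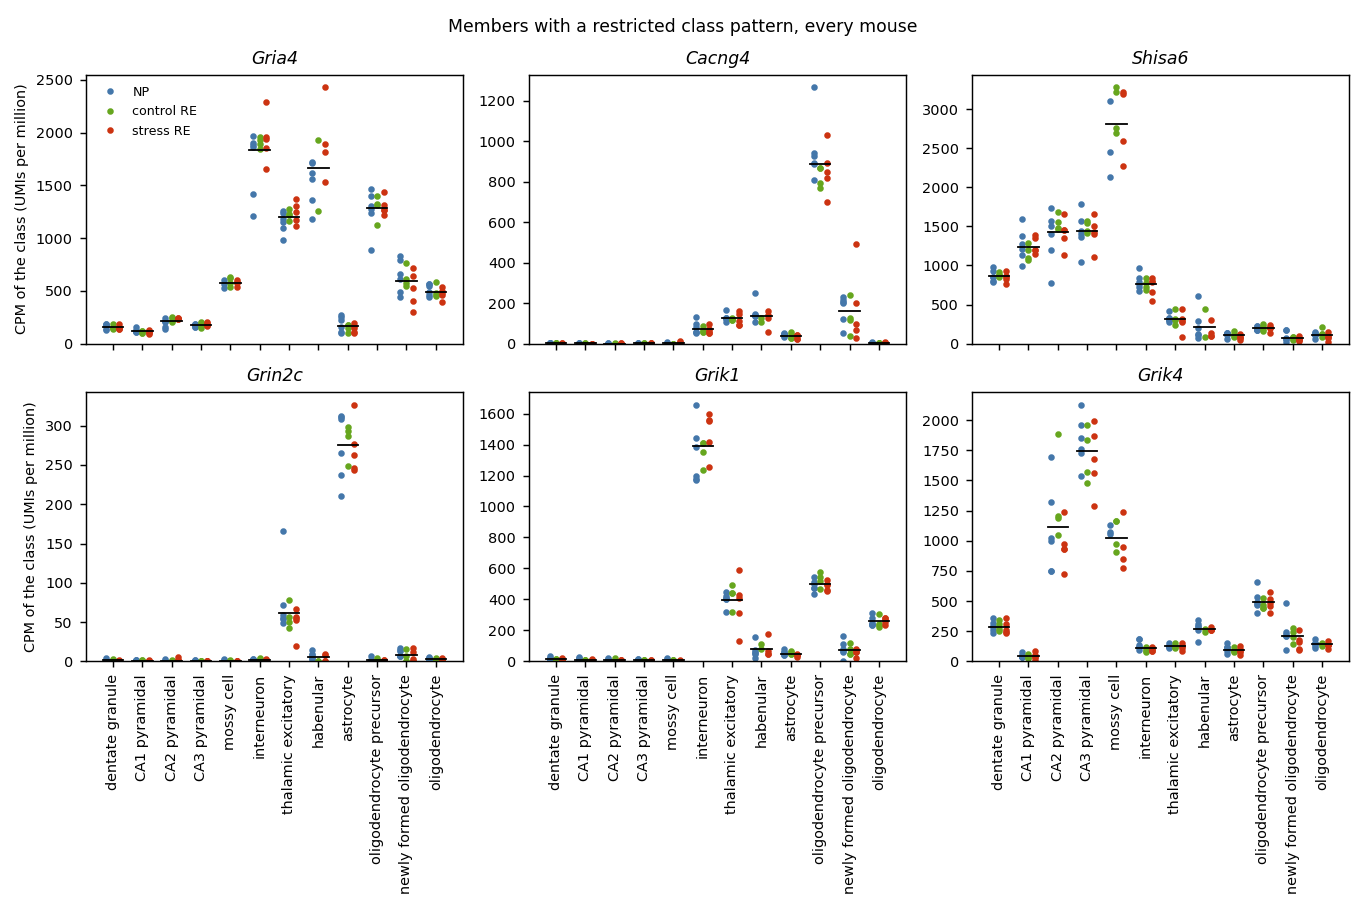
Level in CPM (y axis, from 0) of 6 members with a restricted pattern in 12 classes (x axis), where each point is 1 mouse, the colour gives the group and the bar is the mean over mice. Cacng4 lies at 698 to 1265 CPM in oligodendrocyte precursor-like nuclei, above every point of the other classes drawn, and Grin2c at 211 to 326 CPM in astrocyte-like nuclei.

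Among NMDA receptor subunits, Grin1, the obligatory subunit gene, was found in every neuronal class, with 497 ± 65.5 CPM (n = 13) in subiculum-like, 491 ± 50.7 CPM in CA1-like, 316 ± 33.1 CPM in interneuron-like and, lowest among neuronal classes, 208 ± 50.8 CPM (n = 12) in habenula-like nuclei. Grin2a, the subunit gene of mature, faster synapses, was highest in CA1-like nuclei in 15 of 15 mice (5523 ± 417 CPM), then in dentate granule-like (4472 ± 373 CPM) and CA3-like nuclei (3432 ± 281 CPM). Grin2b, the slower and earlier subunit gene, was also highest in CA1-like nuclei in 15 of 15 mice (3121 ± 166 CPM), but thalamic excitatory-like nuclei came next (2658 ± 217 CPM) and habenula-like nuclei held 367 ± 85.5 CPM (n = 12). Grin2c, better known from cerebellar granule cells, was highest in astrocyte-like nuclei in 15 of 15 mice at 275 ± 33.5 CPM, 4.43-fold thalamic excitatory-like nuclei (62.2 ± 31.6 CPM), and was 1.31 ± 0.91 CPM in dentate granule-like nuclei. Grin2d was highest in thalamic excitatory-like (81.5 ± 18.4 CPM) and interneuron-like nuclei (64.7 ± 17.6 CPM). Grin3a, whose product lowers calcium permeability, was highest in oligodendrocyte precursor-like nuclei (641 ± 40.3 CPM), followed by habenula-like (425 ± 163 CPM, n = 12), Gata3 or Otx2 GABAergic-like (289.6 ± 43 CPM, n = 14), interneuron-like (248 ± 41.7 CPM) and astrocyte-like nuclei (216 ± 28.6 CPM), and was 9.04 ± 2.72 CPM in CA3-like nuclei.

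Kainate receptor subunits peaked in CA3-like, mossy cell-like, interneuron-like and oligodendrocyte precursor-like nuclei. Grik4, the high-affinity subunit gene of CA3, was highest in CA3-like nuclei in 15 of 15 mice (1746 ± 228 CPM), followed by CA2-like (1110.4 ± 331 CPM) and mossy cell-like nuclei (1026 ± 147 CPM, n = 11), and was 45.6 ± 18.2 CPM in CA1-like and 28.7 ± 48.8 CPM (n = 13) in subiculum-like nuclei. Grik5 had its highest level in the same class (248 ± 65.6 CPM). Grik1 was highest in interneuron-like nuclei in 15 of 15 mice (1388 ± 157 CPM), with 562 ± 209 CPM (n = 13) in subiculum-like and 499 ± 39.2 CPM in oligodendrocyte precursor-like nuclei, and lay between 8.27 CPM and 14.1 CPM in the other hippocampal excitatory classes. Grik2 was broad, from 2961 ± 447 CPM (n = 11) in mossy cell-like through 2761 ± 204 CPM (n = 8) in striatal projection-like and 2637 ± 620.5 CPM in newly formed oligodendrocyte-like nuclei to 592 ± 70.7 CPM in CA2-like nuclei, the lowest neuronal class. Among the named classes Grik3 was highest in oligodendrocyte precursor-like nuclei (185 ± 30.4 CPM), with 96.9 ± 14.7 CPM in dentate granule-like and 1.82 ± 1.57 CPM in CA3-like nuclei. The kainate auxiliary gene Neto1 was highest in striatal projection-like (755 ± 81.6 CPM, n = 8), CA3-like (626 ± 113 CPM) and interneuron-like nuclei (581 ± 90.3 CPM), and Neto2 in striatal projection-like (266 ± 52.7 CPM, n = 8) and mossy cell-like nuclei (234 ± 51.4 CPM, n = 11), with 12.2 ± 1.75 CPM in dentate granule-like nuclei. Grid1, a delta receptor gene whose product organises synapses through cerebellins, was near equal in CA2-like (1176 ± 102 CPM), oligodendrocyte precursor-like (1115 ± 102 CPM) and striatal projection-like nuclei (1053 ± 106 CPM, n = 8).

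Of the metabotropic receptors, Grm5, a group I receptor gene, was highest in subiculum-like (5178 ± 662 CPM, n = 13) and striatal projection-like nuclei (4299 ± 231 CPM, n = 8) and held 1663 ± 129.6 CPM in oligodendrocyte precursor-like nuclei. The group II receptor gene Grm3 was highest outside neurons, at 1919.5 ± 469 CPM in pericyte or smooth muscle-like, 1769.7 ± 142 CPM in oligodendrocyte-like and 1313 ± 195 CPM in astrocyte-like nuclei, against 83.3 ± 11.5 CPM in dentate granule-like nuclei. Grm2 was low and highest in dentate granule-like nuclei (37.6 ± 8.38 CPM), and its level in CA3-like nuclei was 0.806 ± 0.512 CPM. Among group III genes, Grm4 was highest in thalamic excitatory-like nuclei (197 ± 46.2 CPM) and Grm7 in pericyte or smooth muscle-like nuclei (4882 ± 849 CPM), without overlap with the 3294 ± 130.05 CPM (n = 8) of striatal projection-like nuclei. Grm8 was highest in subiculum-like (1030.02 ± 157 CPM, n = 13) and mossy cell-like nuclei (853 ± 131 CPM, n = 11), followed by choroid plexus-like nuclei (609 ± 141 CPM, n = 13), and was 16.8 ± 11.1 CPM in CA1-like and 10.1 ± 5.21 CPM in CA3-like nuclei. Grm6, the receptor gene of retinal ON bipolar cells, had 3 UMIs in its highest class over all mice and passed no filter.

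Ratios of 2 subunits in the same nuclei do not depend on gene length when compared between classes, and are given as log2 ratios of CPM. The sign of a ratio does depend on both lengths, so only differences between classes were read. The ratio of Gria1 to Gria2 was 2.18 ± 0.27 in interneuron-like nuclei against 1.03 ± 0.33 in CA1-like, 0.05 ± 0.23 in thalamic excitatory-like and -2.50 ± 0.52 in oligodendrocyte precursor-like nuclei, the highest and lowest of these 4 classes. The ratio of Gria4 to Gria2 spanned a wide range over the neuronal classes. It was 1.07 ± 0.20 in thalamic excitatory-like, 0.97 ± 0.39 in habenula-like (n = 12) and 0.87 ± 0.18 in interneuron-like nuclei but -4.38 ± 0.38 in CA1-like, -3.88 ± 0.37 in dentate granule-like and -3.70 ± 0.31 in CA3-like nuclei, with mossy cell-like nuclei between them, at -2.29 to -1.76 over 11 mice. The ratio of Gria3 to Gria2 was highest in thalamic excitatory-like nuclei (-0.05 ± 0.15) and was -1.66 ± 0.22 in dentate granule-like nuclei.

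The TARP ratio, Cacng8 to Cacng2, differed within the hippocampus, from 3.52 ± 0.75 in subiculum-like (n = 13), 3.06 ± 0.60 in CA2-like and 2.40 ± 0.29 in CA1-like through 1.29 ± 0.12 in dentate granule-like to 0.22 ± 0.19 in CA3-like and -0.72 ± 0.25 in mossy cell-like nuclei (n = 11). The subiculum-like value was 0.43 with the coarser clusters, where it lay below that of dentate granule-like nuclei. The ratio was -1.11 ± 0.18 in interneuron-like and -3.01 ± 0.17 in thalamic excitatory-like nuclei. In subiculum-like nuclei Cacng2 (19.1 CPM) lay below its background level of 26 CPM. In thalamic excitatory-like nuclei Cacng8 (24.8 CPM) lay below its background level of 32.3 CPM. The ratio of Grin2a to Grin2b was 1.87 ± 0.37 in habenula-like (n = 12), 1.10 ± 0.11 in dentate granule-like and 0.82 ± 0.10 in CA1-like nuclei, and was lower in striatal projection-like (-0.51 ± 0.19, n = 8) and thalamic excitatory-like nuclei (-0.89 ± 0.11). In dentate granule-like nuclei the Grin2a to Grin2b ratio was 1.06 ± 0.11 over the 6 NP mice, 1.15 ± 0.11 over the 4 control RE mice and 1.11 ± 0.11 over the 5 stress RE mice, so groups differed by less than the spread between mice.

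**Figure D3:**
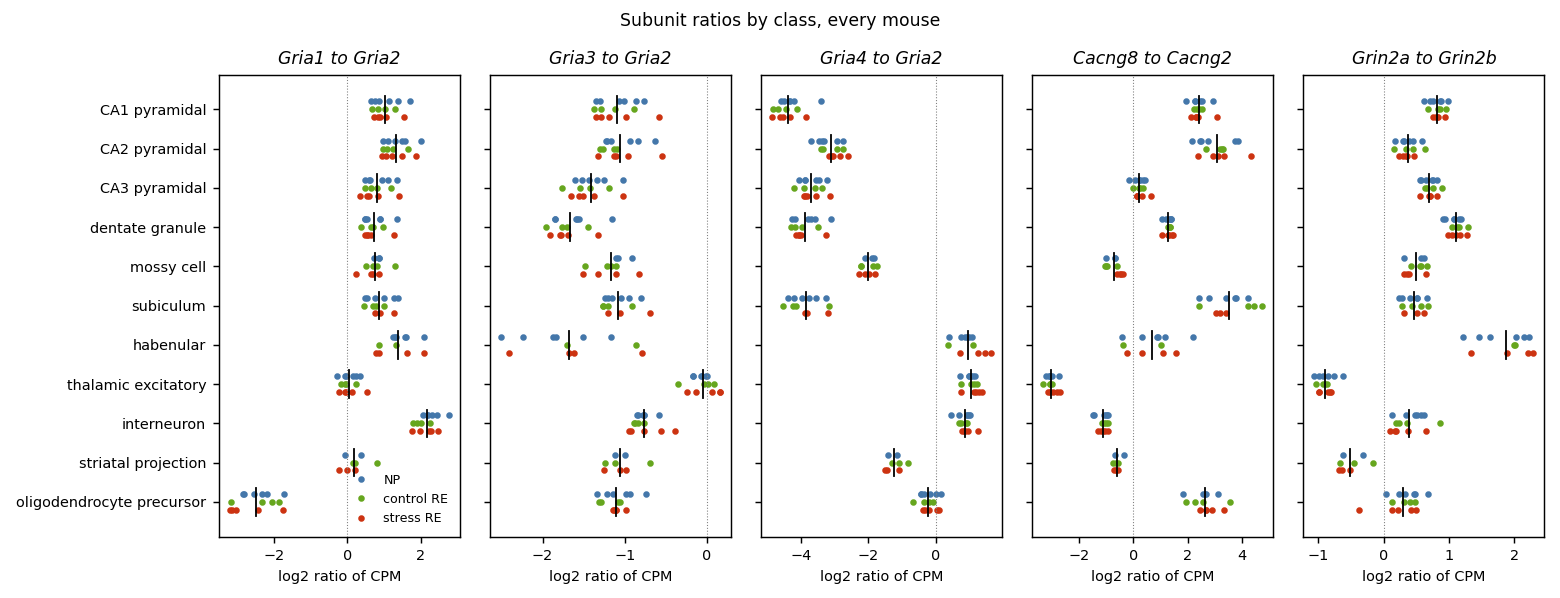
Log2 ratio of the CPM of 2 members (x axis) in 11 classes (y axis), where each point is 1 mouse coloured by group, the bar is the mean and the dotted line marks equal CPM. For Gria4 to Gria2, habenula-like, thalamic excitatory-like and interneuron-like nuclei lie right of the pyramidal and dentate granule-like classes in every mouse.

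Levels also differed between mice in ways that ran through many classes. Over members with a mean of at least 10 CPM the coefficient of variation between the 15 mice had a median of 12.0% in dentate granule-like nuclei (31 members), 13.6% in CA1-like nuclei (29 members) and 25.0% in astrocyte-like nuclei (27 members). Grin2b was the steadiest in dentate granule-like nuclei at 4.86%, and Grik1 the most variable at 56.4%, with a mean below its background level of 61.6 CPM. NP mouse 2, the library with the fewest UMIs, had the lowest Gria2 in 10 of the 16 classes of at least 10 nuclei in every mouse, with 1602 CPM in dentate granule-like and 1666 CPM in CA1-like nuclei. The same mouse had the highest Grin1 in 10 of 16 classes and the highest Cacng2 in 9 of 14. Stress RE mouse 3 was the mouse most often lowest over classes for 14 members, and NP mouse 2 for 5. For Gria1, Shisa6 and Cacng8 stress RE mouse 3 was lowest in 7 of 16 classes each. Of the other mice of batch 1, NP mouse 1, the library with the next fewest UMIs, held 2448 CPM of Gria2 in dentate granule-like and 2594 CPM in CA1-like nuclei. Stress RE mouse 2 held 1822 and 1852 CPM, the second lowest of the 15 in both classes. The part of depth and batch in these values was not tested.

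The first comparison asked what reproductive experience with an undisturbed litter left behind, control RE against NP. With edgeR and its filter on low counts no member passed an adjusted p of 0.05 in any class over all mice. Over 583 tests of 36 members in 21 classes, edgeR called 0, as it did among all 183493 tests of all genes (0%), and DESeq2 also called 0 members. Without the filter on low counts edgeR called 1, Grin3a in CA2-like nuclei, at an adjusted p of 0.00419. Its log2 fold change was -2.49 then and -2.51 with the filter. For the named differences called without the filter, p fell while log2 fold changes hardly moved, for a reason that was not tested. Within batch 3, with 2 mice a group, edgeR called 1 of 552, Gria1 in choroid plexus-like nuclei (log2 fold change -1.43, adjusted p = 0.0466), beside 0.00389% of all genes. At an unadjusted p under 0.05 there were 26 member tests, 4.46% beside 3.14% over all genes. Of these, 8 were higher in control RE (background 1.28%) and 18 lower (1.86%). The median log2 fold change over these tests was 0.00213 for the members and -0.00331 for all genes. Of the 37 members, 36 passed the filter on low counts in at least 1 class, and Grm6 in none.

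The width of the intervals differed between classes. In dentate granule-like nuclei 33 of 36 members had a 95% confidence interval of the difference between control RE and NP within 2-fold either way, and 29 of 36 within 1.5-fold, with Grik1 the largest difference at 0.63 on the log2 scale lower in control RE. The mean level of Grik1 in this class was below its background level of 61.6 CPM. In CA1-like nuclei the counts were 26 and 21 of 34, in CA3-like nuclei 26 and 18 of 34, and in interneuron-like nuclei 34 and 26 of 34. In oligodendrocyte-like nuclei, the class with the second most nuclei, they were 29 and 12 of 36, and in microglia-like nuclei 20 and 0 of 27.

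**Figure D4:**
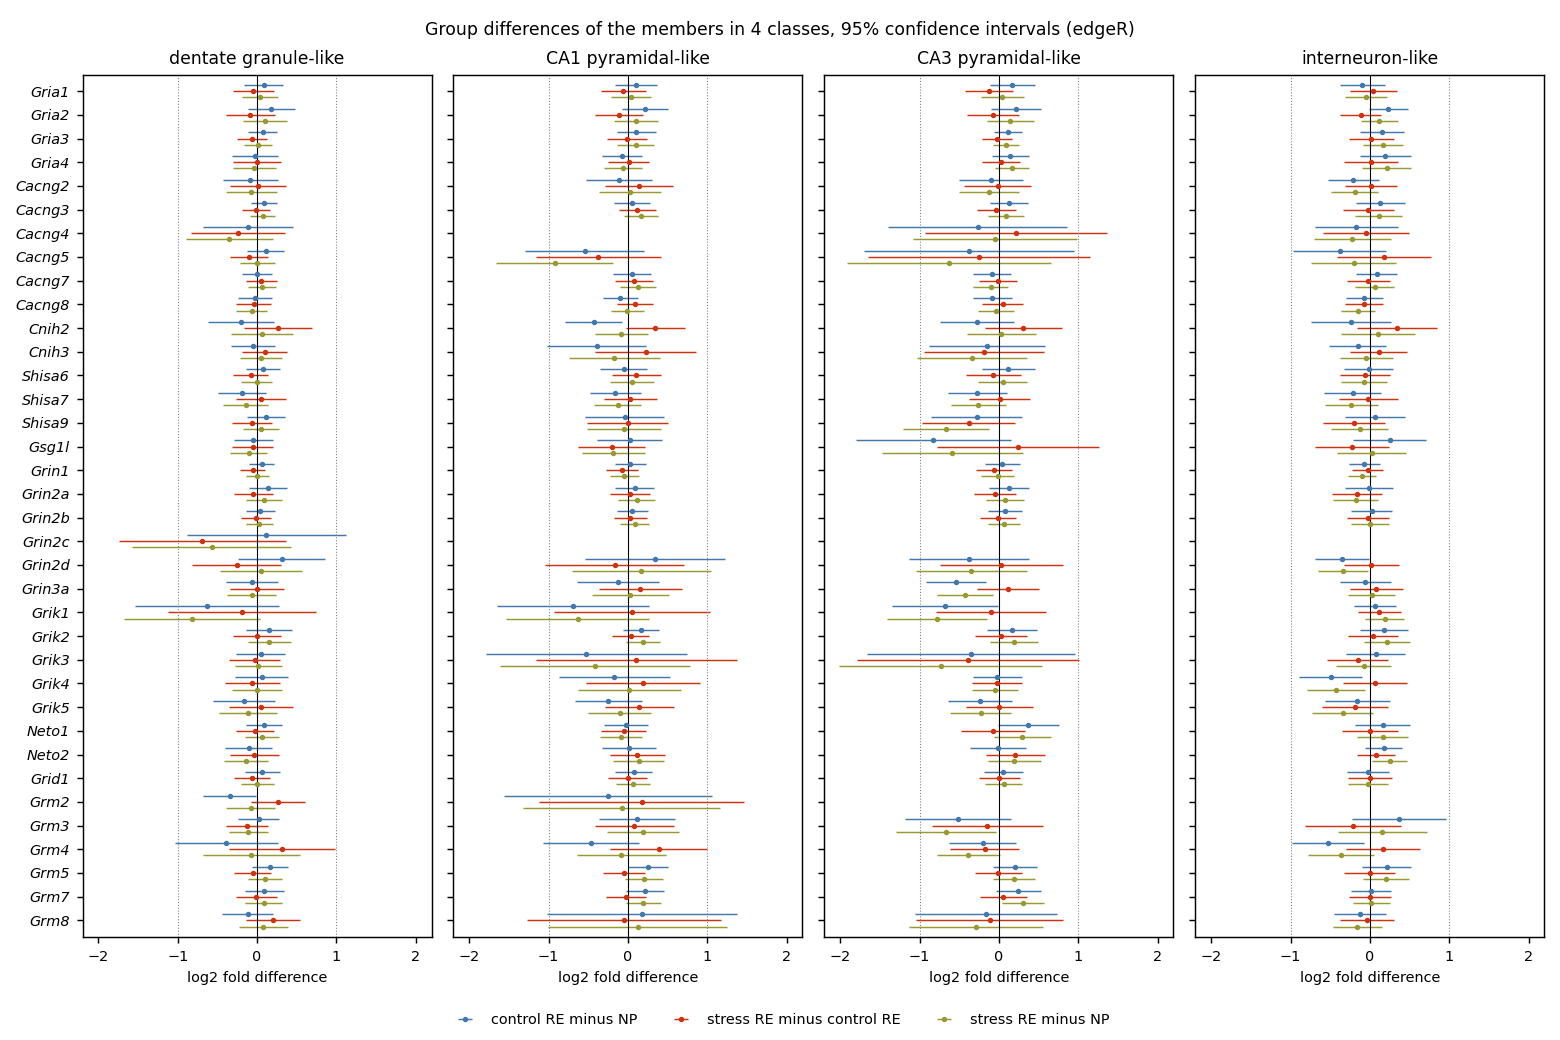
Log2 fold difference between groups (x axis) for 36 members (y axis) in dentate granule-like, CA1-like, CA3-like and interneuron-like nuclei, as edgeR estimates (points) with 95% confidence intervals (lines) and colours for the 3 comparisons. Dotted lines mark 2-fold. In dentate granule-like nuclei the AMPA subunits and Grin1, Grin2a and Grin2b have whole intervals within 1.5-fold, while Grik1, the member that varied most between mice there, has wide intervals and a largest difference of 0.82 on the log2 scale. The mean level of Grik1 there lies below its background level.

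Since no member passed in this fit, the 8 tests with the smallest p are given, chosen for that p, each with its edgeR log2 fold change ± SE and adjusted p. Grin3a in CA2-like nuclei led. It was 4.5 to 35.5 CPM (median 12.5 CPM) in 6 NP mice and 0, 3.17, 5.71 and 2.6 CPM in 4 control RE mice. The log2 fold change was -2.51 ± 0.63, with a 95% confidence interval of -3.82 to -1.21 and an edgeR adjusted p of 0.867. The groups overlapped, and control RE mice held 0 to 4 UMIs each. The group means of 15.6 CPM (NP), 2.87 CPM (control RE) and 10.2 CPM (stress RE) all lay below the background level of Grin3a, 31.6 CPM. That level comes from classes with fewer UMIs per nucleus, as given above. Within batch 2 the log2 fold change was -1.93, and batch 3 gave no value. Grin3a had the same direction in CA3-like nuclei, at 8.9 to 16.5 CPM (median 10.2 CPM) in 6 NP mice and 9.13, 6.43, 5.75 and 7.46 CPM in 4 control RE mice (-0.54 ± 0.18, adjusted p = 0.935), all of them also below the background level. Markers of oligodendrocyte precursors, the class with the most Grin3a, summed to 303 to 530 CPM in CA2-like nuclei of NP mice and 287 to 485 CPM in control RE, with 1 of the 7 markers at 0.

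Mossy cell-like nuclei, named after the excitatory neurons of the dentate hilus, accounted for 4 of the 8. In mossy cell-like nuclei Grm8 was 742, 839.6 and 626 CPM in 3 NP mice and 955, 977, 951 and 899 CPM in 4 control RE mice, with no overlap between the groups. The log2 fold change was 0.46 ± 0.16, with a 95% confidence interval of 0.13 to 0.78 and an edgeR adjusted p of 0.508. Grik5 was 228, 197 and 192 CPM in 3 NP mice and 147, 115, 149 and 124 CPM in 4 control RE mice (-0.56 ± 0.20, adjusted p = 0.523), again without overlap and in the other direction. Grik2 (0.41 ± 0.14, adjusted p = 0.519) and Neto2 (0.53 ± 0.19, adjusted p = 0.559) were higher in control RE, with overlap. Unadjusted p fell under 0.05 for 6 of the 24 members tested in this class, beside 6.85% of its 6574 genes, and a mouse in the test contributed 10 to 41 such nuclei. Neither batch 2 nor batch 3 alone gave a value for these 4 differences, as too few NP mice of either had enough such nuclei. Batch 1 held no control RE mouse, so at least 1 of the 3 NP mice had no control RE mouse of its own batch. The summed 6 CA3 markers in mossy cell-like nuclei were 1360 to 1521 CPM in NP and 1523 to 1560 CPM in control RE. The 6 markers of subiculum, where Grm8 was highest, summed there to 207 to 261 CPM in NP and 252 to 304 CPM in control RE, and the part of either list in these values was not tested. The other 2 were Grik4 in pericyte or smooth muscle-like nuclei (1.49 ± 0.50, adjusted p = 1), at 74.8 ± 40.9 CPM in 6 NP, 219 ± 193 CPM in the 4 control RE mice, against 73.8 ± 55.01 CPM in the 5 stress RE mice, and Cacng3 in oligodendrocyte precursor-like nuclei (1.16 ± 0.43, adjusted p = 1), whose mean level of 10.9 CPM was below its background level of 26.3 CPM. The log2 fold change of Cacng3 was -0.20 within batch 2 and 2.1 within batch 3. The 6 CA3 markers, of the class with the most Grik4, summed in pericyte or smooth muscle-like nuclei to 219 to 338 CPM in NP, 131 to 688 CPM in control RE and 82.5 to 303 CPM in stress RE, and their part was not tested. The background level of Grik4 was 113 CPM, and this class is 1 of the 4 that define it.

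The second comparison asked what postpartum stress changed, stress RE against control RE. Of 615 tests of 36 members in 22 classes edgeR called 0, beside 1 of 194432 over all genes (0.000514%). Within batch 3 it called 1 of 551, Grm8 in pericyte or smooth muscle-like nuclei (adjusted p = 0.0184), beside 0.0184% of all genes. At an unadjusted p under 0.05 there were 31 member tests, 5.04% beside a background of 3.02%. Of these, 5 were higher in stress RE (background 1.58%) and 26 lower (1.44%). With 1 mouse left out the 31 became 12 (without control RE mouse 4) to 64 (without stress RE mouse 5). These counts stand without the share of all genes in the same fits, which was 4.35% without control RE mouse 1. A batch term gave 54 (8.78%, beside 3.84% of all genes). In dentate granule-like nuclei 34 of 36 members had an interval within 2-fold and 29 of 36 within 1.5-fold, in CA1-like nuclei 28 and 22 of 34, and in interneuron-like nuclei 34 and 26 of 34. In dentate granule-like, CA1-like, CA3-like and interneuron-like nuclei 0 members reached an unadjusted p under 0.05, where 1.31%, 1.32%, 1.48% and 1.74% of all genes did.

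Shisa9 in Cajal-Retzius-like nuclei, a population of early-born neurons that persists in the dentate gyrus, had the smallest p. It was 161, 164, 339 and 115 CPM in 4 control RE mice and 78.7, 87.8, 39.3, 45.9 and 64.6 CPM in 5 stress RE mice. The log2 fold change was -1.56 ± 0.35, with a 95% confidence interval of -2.29 to -0.82 and an edgeR adjusted p of 0.307. The groups did not overlap, with each mouse contributing 4 to 63 UMIs in 45 to 74 nuclei. Without the filter on low counts edgeR called it, at an adjusted p of 0.000101. Unadjusted p fell under 0.05 for 6 of the 23 members tested in this class, all lower in stress RE, beside 5.53% of its 4306 genes, and 19 of the 23 had a negative log2 fold change, with a median of -0.32. Within batch 2 the log2 fold change was -1.37 and within batch 3 it was -1.91. In NP mice it was 79.6 to 268 CPM (median 129 CPM) in 6 mice, and stress RE lay below NP with overlap (-1.10 ± 0.34, adjusted p = 0.886). The background level of Shisa9 was 141.5 CPM, above every stress RE mouse and 1 control RE mouse and near the NP mean of 143 CPM. Shisa9 was near equal in its highest classes, dentate granule-like and striatal projection-like nuclei, and 10 markers of dentate granule cells summed to 3286 to 3988 CPM in control RE and 3073 to 3548 CPM in stress RE Cajal-Retzius-like nuclei.

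Striatal projection-like nuclei numbered at least 10 in 3 control RE and 3 stress RE mice. Grm8 there was 538, 663 and 529 CPM in 3 control RE mice and 387, 331 and 319.7 CPM in 3 stress RE mice, without overlap. The log2 fold change was -0.79 ± 0.16, with a 95% confidence interval of -1.13 to -0.46 and an edgeR adjusted p of 0.266. DESeq2 called this difference, at an adjusted p of 0.00898, and it was the 1 member test it called in this comparison. Without the filter on low counts edgeR called it too, at an adjusted p of 0.000107. Within batch 3 the log2 fold change of Grm8 was -0.64, and batch 2 gave no value. Grik4 (-0.88 ± 0.25, adjusted p = 0.316) and Gria1 (-0.40 ± 0.13, adjusted p = 0.327) were lower in stress RE without overlap. The mean level of Grik4 was 105 CPM (control RE) and 63.4 CPM (stress RE), both below its background level of 113 CPM, and without the filter on low counts edgeR called it at an adjusted p of 0.0054. The 7 markers of CA1, where Gria1 was highest among the named classes, summed in striatal projection-like nuclei to 464 to 538 CPM in control RE and 381 to 418 CPM in stress RE, also lower without overlap, and their part was not tested. Unadjusted p fell under 0.05 for 10 of 32 members here, beside 11.3% of the 10939 genes of this class. Control RE mice gave 23 to 97 of these nuclei and stress RE mice 81 to 868. The part of these numbers, or of the region sampled, in the differences was not tested.

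The remaining tests were Grin3a in CA2-like nuclei, 6.9, 21.6, 6.6, 11.5 and 4.58 CPM in 5 stress RE mice (1.97 ± 0.63, adjusted p = 1), Grik3 in newly formed oligodendrocyte-like nuclei (-1.10 ± 0.38, adjusted p = 1), and Grm8 (-2.45 ± 0.77, adjusted p = 0.643) and Grik4 (-1.61 ± 0.56, adjusted p = 0.707) in pericyte or smooth muscle-like nuclei. Grm8 had 0 to 5 UMIs per stress RE mouse in that class and 1 to 29 per control RE mouse. Within batch 3 its log2 fold change was -3.86, with an edgeR adjusted p of 0.0184, and without the filter on low counts edgeR called Grm8 (adjusted p = 0.00136) and Grik4 (adjusted p = 0.0131) there.

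**Figure D5:**
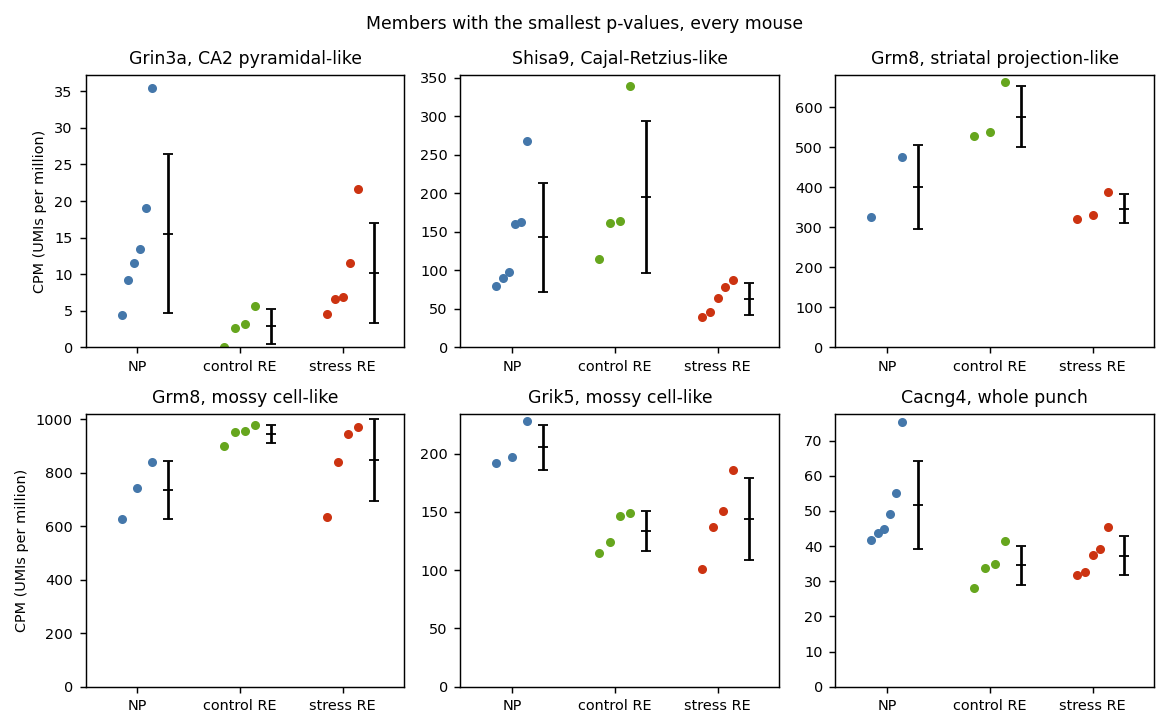
Level in CPM (y axis, from 0) by group (x axis) for 6 of the results with the smallest p, where each point is 1 mouse and the bar at its side gives the mean with SD. Shisa9 in Cajal-Retzius-like nuclei and Grm8 in striatal projection-like nuclei show stress RE mice below every control RE mouse, and Cacng4 in the whole punch shows NP mice above every control RE mouse. With edgeR and its filter on low counts none passed adjustment over all genes, while DESeq2 called Grm8 in striatal projection-like nuclei.

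The third comparison set stress RE against NP, which differ by reproductive experience and stress together. Of 633 tests in 23 classes edgeR called 0, beside 0 of 195321 (0%). Within batch 3 it called 10 of 547 member tests (1.83%, beside 0.0631% of all genes), 9 in choroid plexus-like and 1 in pericyte or smooth muscle-like nuclei. At an unadjusted p under 0.05 there were 47 tests, 7.42% beside 3.84% of all genes. Of these, 14 were higher in stress RE (background 1.6%) and 33 lower (2.24%). With 1 mouse left out the 47 became 23 (without stress RE mouse 4) to 77 (without stress RE mouse 5). These counts stand without the share of all genes in the same fits. The median log2 fold change over the member tests was -0.07, beside -0.0035 for all genes. The 3 comparisons share mice, so these counts are not independent of each other.

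Choroid plexus-like nuclei held 9 of the 47, all lower in stress RE, of 20 members tested, beside 6.46% of the 7248 genes of that class. By its methods the study removed clusters with choroid plexus markers as contaminants. All 20 had a negative log2 fold change here, as had 18 of the 20 in control RE against NP. Gria4 there was 149, 104, 48.5, 48.3 and 155 CPM in 5 NP mice and 48.1, 43.7, 45.3 and 49 CPM in 4 stress RE mice, with overlap and all below its background level of 217 CPM. The log2 fold change was -1.17 ± 0.38, with a 95% confidence interval of -1.96 to -0.38 and an edgeR adjusted p of 0.704. Within batch 3 it was -1.40, and without the filter on low counts edgeR called it at an adjusted p of 0.00138. The others were Grin1, Grin2a, Grin2b, Gria1, Grik2, Grid1, Grm7 and Shisa9, of which Grin1 (-1.26 ± 0.48, adjusted p = 0.746) and Gria1 (-1.22 ± 0.48, adjusted p = 0.746) are examples named after their values were seen. Within batch 3, with 2 mice a group, edgeR called 9 of 20 members in this class, all lower in stress RE, beside 1.38% of its 7854 genes. They ran from Gria2 (-1.33, adjusted p = 0.0198) to Shisa9 (-2.68, adjusted p = 0.0153) in log2 fold change. Batch 2 gave no value for this class in this comparison, and in the classes it covered no member was called. Choroid plexus-like nuclei held the lowest level of all named classes for 4 called members. These were Gria2 (332 CPM, background level 717 CPM), Gria3 (111 and 245 CPM), Grik2 (297 and 736 CPM) and Grid1 (64 and 158 CPM). The 7 CA1 markers summed to 202 to 338 CPM in choroid plexus-like nuclei of NP mice and 179 to 313 CPM in stress RE, the 5 GABAergic markers to 5.37 to 69.6 CPM and 19.6 to 45.3 CPM and the 10 dentate granule markers to 3848 to 5859 CPM and 4982 to 6077 CPM, and the part of free RNA in these values was not tested. Grm8, the member with a high level of its own in this class, was 677, 491, 858, 773 and 585 CPM in 5 NP mice and 643, 637, 667 and 594 CPM in 4 stress RE mice (-0.10 ± 0.18, adjusted p = 1).

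In mossy cell-like nuclei Neto2 was 196, 165 and 182 CPM in 3 NP mice and 295, 287, 222 and 229 CPM in 4 stress RE mice (0.56 ± 0.19, adjusted p = 0.931), without overlap. Control RE, which shares the same 3 NP mice, overlapped NP for this gene. Neither batch 2 nor batch 3 alone gave a value for Neto2 in this class. The other tests of this comparison were Grm8 in pericyte or smooth muscle-like (-2.48 ± 0.72, adjusted p = 0.509), Shisa9 in Cajal-Retzius-like nuclei as given before, Grik3 in newly formed oligodendrocyte-like (-1.08 ± 0.35, adjusted p = 0.674) and in astrocyte-like (-0.74 ± 0.26, adjusted p = 1), Gria4 in microglia-like (-0.85 ± 0.30, adjusted p = 0.897) and Grik4 in endothelial-like nuclei (-1.63 ± 0.59, adjusted p = 1). Without the filter on low counts edgeR called Grm8 in pericyte or smooth muscle-like (adjusted p = 0.000419), Shisa9 in Cajal-Retzius-like (adjusted p = 0.0194) and Grik4 in endothelial-like nuclei (adjusted p = 4.9e-06), and within batch 3 the log2 fold change of Grm8 was -3.87 at an edgeR adjusted p of 0.0232. The log2 fold change of Grik4 without the filter, -1.69, was near the -1.63 with it, and the reason for its smaller p was not tested. Grik3 in astrocyte-like nuclei was 7.42 ± 1.45 CPM in NP and 4.58 ± 1.52 CPM in stress RE, below its background level of 12.3 CPM. The 7 oligodendrocyte precursor markers summed to 169.8 to 222 CPM in astrocyte-like nuclei of NP mice and 129 to 184 CPM in stress RE, and in newly formed oligodendrocyte-like nuclei to 3826 to 8914 CPM and 2443 to 9466 CPM, and their part was not tested. Grik4 in endothelial-like nuclei was carried by NP mice 5 and 6, at 526 and 355 CPM against 45.7 to 74.2 CPM in the other 4, and markers of CA3 summed to 153 to 548 CPM in endothelial-like nuclei of NP mice and 140.2 to 244 CPM in stress RE. Stress RE mice held 42.5 to 80.9 CPM of Grik4 there, below its background level of 113 CPM. Gria4 in microglia-like nuclei was 218 CPM in NP and 123 CPM in stress RE, beside a background level of 217 CPM. Grm8 in pericyte or smooth muscle-like nuclei was 125 and 24 CPM, beside 72.2 CPM. These 3 classes are among the 4 that define the background level.

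In the whole punch, where fewer cells of a type and less RNA per cell cannot be told apart, 36 members were tested and 0 were called in each comparison, beside 0.00472% of 21165 genes for control RE against NP, 0% for stress RE against control RE and 0% for stress RE against NP. At an unadjusted p under 0.05 there were 2 (background 3.98%), 1 (0.855%) and 7 (4.03%) of the 36. Cacng4 was 41.7 to 75.2 CPM (median 46.9 CPM) in 6 NP mice and 33.8, 34.8, 41.4 and 28 CPM in 4 control RE mice, without overlap. The log2 fold change was -0.51 ± 0.16, with a 95% confidence interval of -0.85 to -0.17 and an edgeR adjusted p of 0.928. Within batch 2 it was -0.65 and within batch 3 it was -0.22. In stress RE Cacng4 was 37.4, 39.3, 45.5, 32.5 and 31.7 CPM in 5 mice (against NP -0.41 ± 0.15, adjusted p = 0.999). Within oligodendrocyte precursor-like nuclei, where its level was highest, Cacng4 was 807 to 1265 CPM (median 908 CPM) in 6 NP mice and 769, 868, 869 and 795 CPM in 4 control RE mice (-0.18 ± 0.12, adjusted p = 1). These nuclei made up 2.67% ± 0.218 (SD, n = 6) of NP and 2.59% ± 0.201 (n = 4) of control RE nuclei. Habenula-like nuclei also held Cacng4 (137 ± 44.4 CPM, n = 12), their shares given above overlapped between NP and control RE mice, and their part in the whole-punch value was not tested.

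Grm5 in the whole punch was 1269.6 to 2076 CPM (median 1692 CPM) in 6 NP mice and 1935, 1951, 1874, 2143 and 2109.6 CPM in 5 stress RE mice (0.31 ± 0.12, adjusted p = 0.999), with the lowest value in NP mouse 2. Within batches 2 and 3 the log2 fold change of Grm5 was 0.23 and 0.09. Gria3 (0.26 ± 0.11, adjusted p = 0.928), Cacng5 (-0.25 ± 0.12, adjusted p = 0.928) and Grm5 (0.27 ± 0.13, adjusted p = 0.928) completed control RE against NP, and Cacng3 (0.26 ± 0.11, adjusted p = 0.999) and Neto1 (0.30 ± 0.13, adjusted p = 0.999) stress RE against NP. Within batches 2 and 3 the log2 fold changes of Cacng3 were 0.19 and 0.01 and those of Neto1 0.16 and 0.18. Those of Gria3 were 0.21 and 0.28, of Cacng5 -0.19 and -0.17 and of Grm5, control RE against NP, 0.14 in both. Between stress RE and control RE the smallest p belonged to Neto2 (0.37 ± 0.16, adjusted p = 1), Cnih2 (0.22 ± 0.17, adjusted p = 1), Grm8 (0.26 ± 0.29, adjusted p = 1) and Grik1 (0.17 ± 0.22, adjusted p = 1), of which Grm8 and Grik1 had the opposite sign within batch 3. Without NP mouse 3 and stress RE mouse 3, which held most striatal projection-like nuclei, the members at an unadjusted p under 0.05 numbered 12, 0 and 14 of 36 in the 3 comparisons, beside 6.77%, 0.524% and 6.61% of all genes, and 0 were called.

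The 46 partner genes of the glutamate synapse (scaffolds such as Dlg4 and Shank3, assembly factors such as Frrs1l, secreted partners such as the neuronal pentraxins, and glutamate transporters) were tested in the same fits. Of 727, 768 and 784 tests within classes edgeR called 0, 0 and 0 in the 3 comparisons, in the order given. At an unadjusted p under 0.05 there were 25, 30 and 42 tests, 3.44%, 3.91% and 5.36%, beside the backgrounds of 3.14%, 3.02% and 3.84% given above. In the whole punch there were 6 (1 higher and 5 lower), 0 and 2 of 46, that is, 13%, 0% and 4.35% beside 3.98%, 0.855% and 4.03%, and edgeR called 0.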

How the data were processed

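Single nuclei from dHF punches of 15 mice were sequenced with the 10x 3′ chemistry. The deposited values are UMI counts per gene and barcode that the authors made with Cell Ranger (7.1.0 in the study's methods, 7.0.0 in the matrix header) on mm10, as whole numbers. The study's methods also describe SoupX for ambient RNA and DoubletFinder for doublets, as later steps on the Cell Ranger output, and neither was repeated here. The study removed clusters with choroid plexus, ependymal or vascular leptomeningeal markers as contaminants. It also removed clusters with markers of neurons outside the dHF. No cluster was removed for such markers here. Barcodes with at least 200 genes and at most 5% mitochondrial UMIs were kept, and the highest Scrublet scores were removed in proportion to library size (scanpy 1.11.5). Clusters came from 2000 variable genes, of which 5 members were left out, with 30 principal components, 15 neighbours and Leiden resolution 1, without integration. Names came from marker lists, for clusters of 50 nuclei or more, by limits set after the clusters had been seen: 3 or more markers at 5 CPM and a mean log2 fold of at least 2.5. Where another list lay within 0.5, a gene among the 10 leading genes decided between them, as for mossy cell-like and newly formed oligodendrocyte-like nuclei. The authors' cell type labels were not used here.

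Counts were summed per mouse and class (at least 10 nuclei) and tested with edgeR 4.0.16 (quasi-likelihood test, TMM, filterByExpr, 2-sided), fitted over all 3 groups, with Benjamini-Hochberg adjustment over all genes of the class. DESeq2 1.42.0, RLE factors, no filter, a batch term, at least 20 nuclei, Leiden resolution 0.5, within-batch fits and leaving out each mouse were alternatives. The procedure was run on counts simulated for dentate granule-like and mossy cell-like nuclei, with changes of 2-fold or more and no batch effect. Its recovery is not given here, and smaller differences were not simulated. Each mouse is 1 library, numbered in accession order, and precision is limited by 4 to 6 mice a group and by the UMIs of each class. The 37 members, the partner list, the markers and the tests were chosen with earlier results of these data known. Named group results were the 8 smallest p within classes and the 4 smallest in the whole punch for each comparison, as no member passed an adjusted p of 0.05 in the edgeR fit. Promoter windows were read from RefSeq on GRCm38.p6, and protein sequences were not used here.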

Additional observations from a re-analysis of the deposited data

Results flagged for a closer look

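Of 71 groups of 4 to 6 mice examined for the named results, 4 held a mouse far from the others by Dixon's criterion, and chance gives about 1 in 20. In the whole punch Cacng3 was 92.7 CPM in NP mouse 3 against 77.2 to 81.2 CPM in the other 5 NP mice, and this mouse held 447 striatal projection-like nuclei. Grik1 was 279 CPM in stress RE mouse 2 against 169 to 196 CPM in the other 4, and this mouse held 117 subiculum-like nuclei, the most of any mouse. Neto1 was 283 CPM in control RE mouse 1 against 249 CPM in each of the other 3. In pericyte or smooth muscle-like nuclei Grm8 was 79.9 CPM in stress RE mouse 2, from 5 UMIs, against 0 to 18 CPM in the other 4. The part of the class shares in these values was not tested.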

How the results depend on the processing

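No paired analysis was possible because the labels give the mice no replicate numbers that are shared between groups. With each of the 15 mice left out in turn, 0 members were called in all 3 comparisons, within classes and in the whole punch. The numbers at an unadjusted p under 0.05 within classes then ran from 13 (without NP mouse 2, 2.21% beside 2.28% of all genes) to 40 (without NP mouse 3, 6.37% beside 4.13%) for control RE against NP, from 12 (without control RE mouse 4) to 64 (without stress RE mouse 5) for stress RE against control RE, and from 23 (without stress RE mouse 4) to 77 (without stress RE mouse 5) for stress RE against NP. With all mice, 3.14%, 3.02% and 3.84% of all genes were at this p. That share also moved with the mouse left out, to 4.35% without control RE mouse 1 for stress RE against control RE. In the whole punch the numbers ran from 1 to 9, 0 to 1 and 1 to 11, where with all mice 3.98%, 0.855% and 4.03% of all genes were at this p. Ranges given without the share of the same fits are no result about the members. Without the filter on low counts, 1, 7 and 17 member tests within classes were called in the 3 comparisons in the order above (0.131%, 0.877% and 2.04%, beside 0.0414%, 0.102% and 0.093% of all genes), 62, 81 and 129 had an unadjusted p under 0.05 (8.14%, 10.2% and 15.5%, beside 3.67%, 3.67% and 4.22%), and 3, 4 and 6 partner tests were called (0.313%, 0.399% and 0.574%). DESeq2 called 1 member test for stress RE against control RE (0.163%, beside 0.0221% of all genes). In the whole punch it gave 4 members at an unadjusted p under 0.05 for control RE against NP and 0 for stress RE against control RE. With edgeR 3.98% and 0.855% of all genes were at this p, but that is another method. Within classes DESeq2 put 2.34% and 2.15% of all genes at this p, where edgeR put 3.14% and 3.02%. The 4 members therefore stand without a matching share. A batch term gave 54 within classes for stress RE against control RE (8.78%, beside 3.84%). Without NP mouse 3 and stress RE mouse 3, a choice made after seeing the data, there were 50 for control RE against NP within classes (7.85%, beside 4.22%), and 12, 0 and 14 in the whole punch. Within batch 3, 1, 1 and 10 member tests within classes were called (0.181%, 0.181% and 1.83%, beside 0.00389%, 0.0184% and 0.0631% of all genes), and 36, 84 and 51 had an unadjusted p under 0.05 (6.52%, 15.2% and 9.32%, beside 1.89%, 5.24% and 3.34%). Within batch 2, 0 were called and 35, 39 and 38 had an unadjusted p under 0.05 (6.62%, 6.77% and 7.18%, beside 3.67%, 4.63% and 3.03%). The causes were not tested.

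Of 762 alternative values of the named differences, 759 kept their direction and 13 had an adjusted p under 0.05 (10 without the filter on low counts, 2 within batch 3 and 1 with DESeq2), while 0 of 493 fits without 1 mouse reversed. The named differences were chosen for their small p in these same data. The mouse left out could also belong to the group not compared. A kept direction is therefore a description and no independent support. The 3 reversals were Cacng3 in oligodendrocyte precursor-like nuclei, control RE against NP, within batch 2 (-0.20 on the log2 scale), and Grm8 (-0.34) and Grik1 (-0.25) in the whole punch, stress RE against control RE, within batch 3. With Leiden resolution 0.5 the log2 ratios in subiculum-like nuclei moved to 0.24 for Grin2a to Grin2b, 0.24 for Gria1 to Gria2, -2.18 for Gria4 to Gria2 and 0.43 for Cacng8 to Cacng2. The highest class of each member was the same with nuclei of at least 1000 UMIs, and changed for 1 member with the mean of per-nucleus CPM (Shisa9) and for 1 with pooled nuclei (Gria2).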

Other observations

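Of the clusters that stayed unnamed, 3 also held members at neuronal levels. The 6491 nuclei of one held 1474 ± 136 CPM of Gria4 and 1241 ± 199 CPM of Gria2 (SD, n = 15). The 1892 nuclei of another held 659.7 ± 110.3 CPM of Gria4 and 1629 ± 221 CPM of Gria2 (n = 14). The 328 nuclei of the third, of which 157 came from stress RE mouse 3, held 4457 ± 419 CPM of Grm5 and 2759 ± 187 CPM of Gria2 over the 4 mice with at least 10 of them.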
